A study of Mus musculus with 12 samples.

Results

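The SIBLING genes Spp1, Ibsp, Dmp1, Mepe and Dspp were followed across 12 RNA-sequencing libraries of mouse calvaria, the flat bones of the skull vault, taken at embryonic day 17.5. All 5 were found among the 39179 Ensembl gene identifiers of the count files by matching identifiers to symbols, and all 5 passed the filter on low counts. The animals were C57BL/6 embryos, either wild type (WT) or carrying 1 disrupted copy of Runx2 (Runx2+/-). Their dams, mated at 8 weeks of age, received vehicle or MS-275 at 10 mg/kg in 2 intraperitoneal injections, at 14.5 and 16.5 days post coitum, so that the embryos were exposed before birth. MS-275, also called entinostat, inhibits class I histone deacetylases. The 4 groups, WT with vehicle, Runx2+/- with vehicle, WT with MS-275 and Runx2+/- with MS-275, had 3 libraries each. The labels do not say whether replicates came from separate embryos or litters, so the p-values measure only the spread between these libraries, which may be partly technical. Counts of the female transcript Xist were 46102, 34 and 47 in WT and 60, 47420 and 72182 in Runx2+/- with vehicle. With MS-275 they were 36, 19585 and 29617 in WT and 29300, 38308 and 79127 in Runx2+/-. Replicates in each of the first 3 groups therefore did not all come from the same embryo. Whole calvaria was sequenced, and in such bulk tissue fewer cells of a type and less RNA per cell cannot be told apart.

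SIBLING stands for small integrin-binding ligand, N-linked glycoprotein. The family's secreted proteins are acidic, heavily phosphorylated, carry an Arg-Gly-Asp motif for integrins and bind calcium and hydroxyapatite in bone and dentin. Osteopontin (Spp1) restrains crystal growth and anchors osteoclasts, bone sialoprotein (Ibsp) favours the first mineral deposition, Dmp1 and Mepe are made mainly by osteocytes and take part in phosphate handling, and Dspp is the dentin phosphoprotein precursor of odontoblasts. Runx2 is the transcription factor required for osteoblast formation.

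The 5 genes lie side by side on the plus strand of chromosome 5, within 270.34 kb (GRCm38, GENCODE M21 annotation). Dspp (ENSMUSG00000053268) is at chr5:104170712-104180127, Dmp1 (ENSMUSG00000029307) at chr5:104202613-104214102, Ibsp (ENSMUSG00000029306) at chr5:104299171-104311469, Mepe (ENSMUSG00000053863) at chr5:104325329-104338611 and Spp1 (ENSMUSG00000029304) at chr5:104435118-104441050. A predicted gene on the same strand, Gm42793, overlaps Spp1 in that annotation and has no row in the count files.

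The bases before the transcription start are shown because 4 of the genes moved together in these libraries. RefSeq promoters (GRCm38.p6) were matched for 4 of the 5 members, Spp1, Ibsp, Dmp1 and Mepe, and each was read over the 250 bases before the start on the plus strand. RefSeq gives 2 starts each for Spp1 and Dmp1, so there were 6 windows. The first start of Spp1 and the second of Dmp1, which lie nearest the start of the GENCODE gene, are shown. The letters ATTGG, the reverse of the CCAAT box, began 46 bases before the start in the Spp1 window shown, 54 in Ibsp, 57 in Dmp1 and 21 in Mepe. The RefSeq start of Ibsp lies inside the first exon of the GENCODE annotation, and so does its ATTGG. At the other Dmp1 start ATTGG began 101 bases before it, but it did not occur before the other Spp1 start. CCAAT on either strand occurred in 33.9% of the 32841 RefSeq promoters of that length. The 30 bases around it read as follows, with ATTGG in capitals.
Spp1: ccacctcctgATTGGtggagactgtctgga
Ibsp: cacagctgtgATTGGctgttgagaggcgga
Dmp1: cctgaggctcATTGGctctgaggagctgca
Mepe: aaccatgctgATTGGacatcgggggctctc

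The longer windows of Spp1, Dmp1 and Mepe show where the Runx letters TGTGGT or TGCGGT lie, since the study varied Runx2 dosage. Capitals mark the Runx letters on either strand and ATTGG. They also mark TATAAA on either strand. The homeodomain letters TAATTA are capitalised as well. The Spp1 window is chr5:104434861-104435110, the Dmp1 window chr5:104202367-104202616, shown for its first 246 bases, and the Mepe window chr5:104325079-104325328. The Ibsp window, chr5:104299037-104299286, is not shown whole because 116 of its bases lie in the first exon of the GENCODE annotation.
Spp1: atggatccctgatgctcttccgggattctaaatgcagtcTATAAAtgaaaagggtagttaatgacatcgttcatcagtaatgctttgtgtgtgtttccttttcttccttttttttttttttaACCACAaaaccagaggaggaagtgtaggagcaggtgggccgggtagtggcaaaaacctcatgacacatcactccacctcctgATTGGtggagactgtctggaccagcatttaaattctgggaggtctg
Dmp1: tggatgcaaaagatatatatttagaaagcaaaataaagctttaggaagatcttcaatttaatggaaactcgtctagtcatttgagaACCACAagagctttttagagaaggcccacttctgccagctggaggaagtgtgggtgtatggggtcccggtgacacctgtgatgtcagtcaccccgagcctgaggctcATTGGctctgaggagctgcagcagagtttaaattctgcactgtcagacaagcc
Mepe: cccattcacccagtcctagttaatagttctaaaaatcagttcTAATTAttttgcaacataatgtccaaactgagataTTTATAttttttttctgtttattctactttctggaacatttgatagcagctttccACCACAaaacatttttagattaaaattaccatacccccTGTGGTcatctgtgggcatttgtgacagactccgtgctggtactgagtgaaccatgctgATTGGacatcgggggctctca

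In the windows shown, Runx letters began 128 bases before the Spp1 start, 164 before that of Dmp1, and 118 and 80 before that of Mepe. They did not occur in the Ibsp window or before the other start of Spp1 or of Dmp1, so 3 of the 6 windows held them. They occurred in 18.6% of all promoters when both strands were read. TATAAA on either strand began 28 bases before the Ibsp start, 173 before that of Mepe and 211 before the first start of Spp1, with no match at the 2 Dmp1 starts or the other Spp1 start, against a share of 12.4% of promoters. The Ibsp match again lies in the first exon of the GENCODE annotation. TAATTA was found at 208 bases in Mepe and at 122 bases before the other Spp1 start, and occurred in 4.84% of promoters. The E-box letters CANNTG, not capitalised, were in 66.2% of promoters. GC content was 43.6% in the Spp1 window shown and in Ibsp, 45.6% in the Dmp1 window shown and 38% in Mepe, and 35.6% and 46% at the other starts of Spp1 and Dmp1, all below the median of 52.4%. These matches describe the letters only.

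The libraries held 13307456 to 19399760 counts in genes. On the first principal component, which carried 72.5% of the variance, 5 of the MS-275 libraries scored 83.9 to 140.03 and 4 of the vehicle libraries -122 to -92.7. The library labelled Runx2+/- MS-275 replicate 3 scored -106, among the vehicle libraries, while WT vehicle replicate 3 and Runx2+/- vehicle replicate 3 lay between, at 5.51 and -14.5. Results are therefore given with all libraries and without that Runx2+/- MS-275 library, or without all 3 where the call differs. Osteoblast markers (Runx2, Sp7, Alpl, Col1a1, Bglap and Ifitm5) had none at 0 in any library and summed to 3203 to 10257 CPM, TMM-scaled counts per 1000000, with vehicle and 9444 to 26066 in WT with MS-275. In Runx2+/- with MS-275 that sum was 14101, 7927 and 1202 CPM for replicates 1, 2 and 3. The vehicle and MS-275 ranges of the sum thus overlapped. Most of it was Col1a1, at 25008 of 26066 CPM in WT MS-275 replicate 1 and 8466.5 of 9444 CPM in replicate 3. The 7 epidermis markers in the files summed to 1143 to 4020 CPM with vehicle, 7.52 to 16.0 CPM in 5 MS-275 libraries and 1712 CPM in Runx2+/- MS-275 replicate 3. Lens markers summed to 750 to 1053 CPM in 4 vehicle libraries, but 12.8 and 16.6 CPM in WT and Runx2+/- vehicle replicate 3. With MS-275 the lens sum was 6.54 to 10.2 CPM in 5 libraries and 733 CPM in Runx2+/- replicate 3. Reads in no gene were 5.21% to 8.65% of uniquely placed reads in the 5 MS-275 libraries, 10.5% to 16.8% with vehicle and 22.2% in Runx2+/- MS-275 replicate 3. The TMM factors split the same way, at 0.598 to 0.820 in those 5, 1.18 to 1.32 with vehicle and 1.33 in that library. The part of these markers and measures in the SIBLING differences was not tested.

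The targeted gene did not separate the genotypes. Runx2 stood at 45.5, 42.4 and 46.1 CPM in WT and 65.3, 32.8 and 58.1 CPM in Runx2+/- with vehicle, so the labelled genotype could not be checked from its level. With MS-275, Runx2 stood at 111, 131 and 88.2 CPM in WT and 84.1, 93.5 and 34.1 CPM in Runx2+/-.

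Osteopontin and bone sialoprotein transcripts were the most abundant of the family and were far higher with MS-275. Spp1 measured 322, 279 and 716 CPM in WT and 611, 186 and 575 CPM in Runx2+/- with vehicle. With MS-275, Spp1 measured 8799, 14808 and 18153 CPM in WT, and 19020, 8677 and 134 CPM in Runx2+/-. The lowest of the first 5 of these MS-275 values was above the highest vehicle value, and the last, replicate 3, was below every vehicle library. Group means for Spp1 were 439 ± 241 CPM in WT and 457 ± 236 CPM in Runx2+/- with vehicle (SD, n = 3), and 13920 ± 4739.9 and 9277 ± 9457 CPM with MS-275. Without replicate 3 the last mean was 13849 ± 7313 CPM (SD, n = 2).

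Ibsp measured 794, 453 and 976 CPM in WT and 1212, 328 and 459.8 CPM in Runx2+/- with vehicle. With MS-275 it measured 11018, 15365 and 16858 CPM in WT and 17975, 8952 and 375 CPM in Runx2+/-. The same 5 MS-275 libraries were all above the 6 vehicle libraries, and Runx2+/- MS-275 replicate 3 was within the vehicle range. The Ibsp means were 741 ± 265 and 667 ± 477 CPM with vehicle in WT and Runx2+/- (SD, n = 3), and 14414 ± 3034 and 9101 ± 8801 CPM with MS-275. Leaving out replicate 3 gave 13464 ± 6381 CPM (SD, n = 2) for Runx2+/- with MS-275. In those 5 MS-275 libraries Spp1 and Ibsp held ranks 9 to 14 among all genes by count, whereas with vehicle Spp1 held ranks 78 to 592 and Ibsp 26 to 233.

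**Figure D1:**
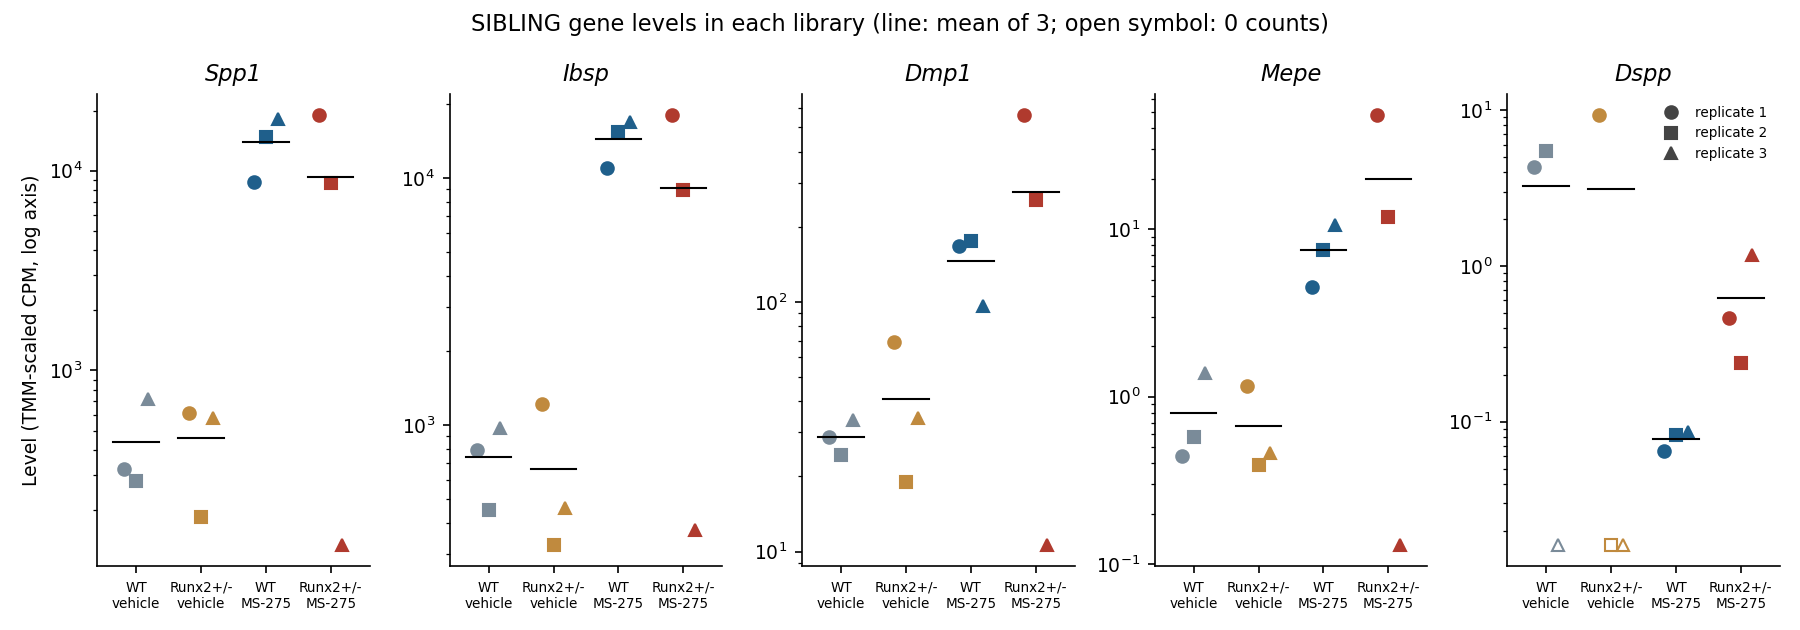
CPM of the 5 SIBLING genes in each of the 12 libraries on a log axis, 1 panel a gene. Each symbol is 1 library, its shape gives the replicate, lines are means of 3 libraries, and open symbols at the foot of the Dspp panel stand for 0 counts. Spp1 and Ibsp with MS-275 lie between 8677 and 19020 CPM in 5 libraries, and Runx2+/- MS-275 replicate 3 lies with the vehicle libraries.

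Dmp1 and Mepe, the members typical of osteocytes, were less abundant. Dmp1 measured 28.7, 24.3 and 33.5 CPM in WT and 68.9, 18.9 and 34.4 CPM in Runx2+/- with vehicle. With MS-275, Dmp1 measured 167, 176 and 95.9 CPM in WT and 561, 256 and 10.7 CPM in Runx2+/-. Replicates 1 and 2 of Runx2+/- with MS-275 were above every other library, and replicate 3 was the lowest of the 12. Mean Dmp1 was 28.8 ± 4.62 and 40.7 ± 25.6 CPM with vehicle and 146 ± 43.8 and 276 ± 276 CPM with MS-275, in WT and Runx2+/- (SD, n = 3), and 409 ± 216 CPM (SD, n = 2) for the last without replicate 3.

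Mepe was close to the detection limit with vehicle, with 11, 10 and 28 counts in WT and 25, 9 and 9 in Runx2+/-. These counts correspond to 0.439, 0.577 and 1.38 CPM in WT and 1.16, 0.388 and 0.458 CPM in Runx2+/-. With MS-275, Mepe measured 4.49, 7.53 and 10.5 CPM in WT and 48.1, 11.9 and 0.131 CPM in Runx2+/-. Runx2+/- MS-275 replicate 1, with 518 counts, stood above all others, and replicate 3, with 3 counts, was the lowest. The means were 0.800 ± 0.511 and 0.667 ± 0.425 CPM with vehicle, and 7.52 ± 3.02 and 20.0 ± 25.0 CPM with MS-275, in WT and Runx2+/- (SD, n = 3).

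Across these 4 genes, each of the 5 MS-275 libraries other than Runx2+/- replicate 3 was above all 6 vehicle libraries, which held for 20.3% of the 17967 genes tested. Together the 5 SIBLING genes took 0.151%, 0.0993% and 0.204% of the counts in WT and 0.249%, 0.0702% and 0.130% in Runx2+/- with vehicle. With MS-275 the share was 1.64%, 2.21% and 2.10% in WT and 2.27%, 1.46% and 0.0695% in Runx2+/-. The 95% Wilson interval of each share reached at most 0.00703 percentage points to either side, which covers counting error only.

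Dspp did not follow the rest of the family. Its counts were 108, 95 and 0 in WT and 201, 0 and 0 in Runx2+/- with vehicle, against 1, 1 and 1 in WT and 5, 3 and 27 in Runx2+/- with MS-275. In CPM these were 4.31, 5.48 and 0 for WT with vehicle, 9.29, 0 and 0 for Runx2+/- with vehicle, 0.0651, 0.0819 and 0.0863 for WT with MS-275 and 0.464, 0.239 and 1.18 for Runx2+/- with MS-275. A count of 0 allowed up to 0.148 CPM in WT vehicle replicate 3, and 0.129 and 0.153 CPM in Runx2+/- vehicle replicates 2 and 3. Only WT vehicle replicates 1 and 2 and Runx2+/- vehicle replicate 1 exceeded 4 CPM, and the vehicle and MS-275 ranges overlapped in both genotypes. Mean Dspp was 3.26 ± 2.88 and 3.10 ± 5.37 CPM with vehicle and 0.0777 ± 0.0112 and 0.626 ± 0.488 CPM with MS-275, in WT and Runx2+/- (SD, n = 3). Over the WT libraries the 3 MS-275 counts against 203 vehicle counts gave a ratio of summed CPM of 0.0236 (exact 95% interval 0.00483 to 0.0701), for counting error only.

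The libraries highest in Dspp were also highest in transcripts of 2 enamel matrix proteins. Amelx, which encodes amelogenin, measured 2.59, 6.17 and 0 CPM in WT and 12.0, 0.0431 and 0 CPM in Runx2+/- with vehicle. Enam, encoding enamelin, measured 0.957, 4.90 and 0 CPM in WT and 8.83, 0.0861 and 0 CPM in Runx2+/- with vehicle. With MS-275 both were at 0 in WT replicates 1, 2 and 3 and in Runx2+/- replicate 2. Runx2+/- replicates 1 and 3 gave 0.0929 and 0.696 CPM for Amelx and 0.0929 and 0.174 CPM for Enam. Thus the 3 libraries with most Dspp were also the 3 highest in Amelx and in Enam, and the fourth highest in Dspp, Runx2+/- MS-275 replicate 3, was the fourth highest in both. Ambn, the ameloblastin gene, did not share this pattern: it measured 7.06, 6.75 and 1.33 CPM in WT and 14.7, 1.03 and 0.764 CPM in Runx2+/- with vehicle, and 22.9, 35.8 and 36.3 CPM in WT with MS-275. In Runx2+/- with MS-275, Ambn measured 55.2, 29.1 and 4.00 CPM. The 7 tooth epithelium markers, Ambn among them, summed to 1.22 to 38.2 CPM with vehicle, 23.3 to 56.2 CPM in 5 MS-275 libraries and 5.70 CPM in Runx2+/- MS-275 replicate 3. Their part in the Dspp difference was not tested.

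**Figure D2:**
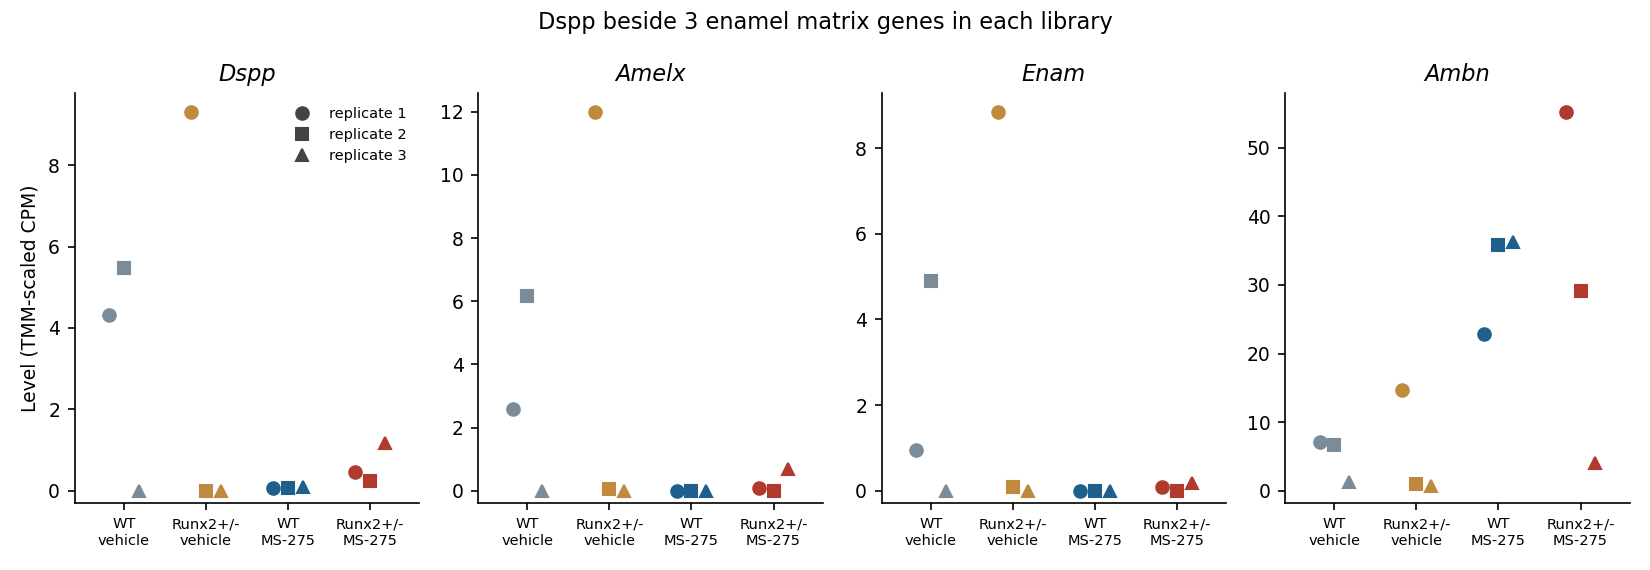
CPM of Dspp, Amelx, Enam and Ambn in each of the 12 libraries, grouped by genotype and treatment, with the replicate as symbol shape. Dspp, Amelx and Enam are highest in WT vehicle replicates 1 and 2 and Runx2+/- vehicle replicate 1, while Ambn is highest in the 5 MS-275 libraries, at 22.9 CPM or more.

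Levels were compared between members per kilobase of exon. Mean CPM per kilobase with vehicle was 358 and 322 for Ibsp, 266 and 277 for Spp1, 10.4 and 14.7 for Dmp1, 0.476 and 0.397 for Mepe and 0.736 and 0.699 for Dspp, in WT and Runx2+/-. Ibsp was above Spp1 in 5 of the 6 vehicle libraries, Runx2+/- replicate 3 being the exception. With MS-275 the means per kilobase were 8446.5 and 5629 for Spp1, 6969.8 and 4401 for Ibsp, 52.9 and 99.8 for Dmp1, 4.47 and 11.9 for Mepe and 0.0175 and 0.141 for Dspp. Spp1 stood above Ibsp in 5 of those libraries, again without Runx2+/- replicate 3. The difference between the Spp1 and Ibsp means was smaller than the SD of Spp1 in each group. That SD lies between libraries, whereas both genes were read in the same libraries. Within libraries the ratio of Spp1 to Ibsp per kilobase was 0.509, 0.772 and 0.920 in WT with vehicle and 1.00, 1.21 and 1.35 in WT with MS-275. In Runx2+/- it was 0.633, 0.710 and 1.57 with vehicle and 1.33, 1.22 and 0.449 with MS-275. The order of the 2 genes within a group was not tested. Both were above Dmp1, and Dmp1 was above Mepe and Dspp, in all 12 libraries.

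In WT calvaria, MS-275 against vehicle asks how the drug changed expression at normal Runx2 dosage. Spp1 and Ibsp rose with MS-275. Spp1 was 31.7-fold higher, a log2 difference of 4.99 (SE 1.32, 95% interval 2.06 to 7.92, edgeR adjusted p = 0.0434), and Ibsp 19.5-fold higher, a log2 difference of 4.28 (SE 1.11, 95% interval 1.82 to 6.74, edgeR adjusted p = 0.0434). So 2 of the 5 members passed the threshold of 0.05 in the higher direction, beside 9.67% of the 17967 genes tested. The median log2 difference was 3.22 over the 5 members and -0.13 over all genes. Dmp1 and Mepe missed the threshold, with log2 differences of 2.34 (SE 0.96, edgeR adjusted p = 0.0845) and 3.22 (SE 1.31, edgeR adjusted p = 0.0818), although the groups did not overlap for Spp1, Ibsp, Dmp1 or Mepe, which held in the higher direction for 27.3% of genes. Dspp had a log2 difference of -5.28 (SE 2.43, 95% interval -10.66 to 0.09, edgeR adjusted p = 0.110).

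These calls were near the threshold and moved with the libraries in the fit. Without the library labelled Runx2+/- MS-275 replicate 3 the SE of Spp1 was 0.68 in place of 1.32, and Spp1, Ibsp, Dmp1 and Mepe all passed, with edgeR adjusted p of 0.00135, 0.00165, 0.00577 and 0.00665, beside 22.2% of genes called higher. Without all 3 libraries that stood apart the 5 members passed, Dspp with a log2 difference of -5.86 (edgeR adjusted p = 0.0191), beside 28.5% of genes called higher and 31.8% lower. Those 3 were picked by their place on the first principal component, along which the treatments mostly separated. Leaving them out therefore favours treatment differences, and WT vehicle replicate 3 had 0 Dspp counts. The Spp1 and Ibsp calls were lost, with edgeR adjusted p from 0.0546 to 0.135, when 1 library was left out among WT vehicle 1 or 2, Runx2+/- vehicle 1 or 2, WT MS-275 1, 2 or 3 or Runx2+/- MS-275 2. Scaling by library size alone moved the median of all genes by -0.83, so that 526 genes were called higher and 7009 lower (6.98% of calls higher, against 50.9%). The log2 differences of Spp1 and Ibsp were then 4.14 and 3.44, and both kept an edgeR adjusted p of 0.0386.

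In Runx2+/- calvaria no gene passed in the edgeR fit of all libraries. There 0% of the 17967 genes were called and 21% had an unadjusted p under 0.05. By limma-voom 0 genes were called, and by DESeq2 812 higher and 408 lower, among them Spp1, Ibsp, Dmp1 and Mepe. The log2 differences were 4.34 (SE 1.28) for Spp1, 3.77 (SE 1.09) for Ibsp, 4.89 (SE 1.40) for Mepe and 2.76 (SE 0.98) for Dmp1, with an edgeR adjusted p of 0.181 for the first 3 and 0.186 for Dmp1. Dspp had a log2 difference of -2.24 (SE 1.90, edgeR adjusted p = 0.518). Without Runx2+/- MS-275 replicate 3, which left 2 libraries in that group, 4 of the 5 members were called higher, beside 18.5% of genes. Their log2 differences were then 4.92 for Spp1 (edgeR adjusted p = 0.00270), 4.34 for Ibsp (0.00302), 3.33 for Dmp1 (0.00357) and 5.47 for Mepe (0.00259).

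Averaged over the genotypes, 4 of the 5 members rose with MS-275, beside 21.1% of genes called higher. Spp1 was 25.4-fold higher (log2 difference 4.67, SE 0.92, edgeR adjusted p = 0.0135), Ibsp 16.3-fold (4.03, SE 0.78, edgeR adjusted p = 0.0135), Mepe 16.6-fold (4.06, SE 0.96, edgeR adjusted p = 0.0146) and Dmp1 5.86-fold (2.55, SE 0.69, edgeR adjusted p = 0.0196). Among the 17967 genes ordered by this log2 difference, Spp1 held place 3, Mepe 9, Ibsp 10 and Dmp1 84 from the top. The 4 calls were kept whichever of the 12 libraries was left out. Dspp, at -3.76 (SE 1.55, edgeR adjusted p = 0.0725), was not called. It passed when replicate 3 of either vehicle group was dropped. Each of those libraries had 0 Dspp counts, so dropping it favours a lower call. Dspp also passed with all 3 libraries that stood apart left out (-4.82, edgeR adjusted p = 0.00742). In that fit 31.6% of genes were called higher and 38.2% lower. Dropping Runx2+/- vehicle replicate 1, the only library of its group with Dspp counts, instead turned the sign of the averaged Dspp difference.

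**Figure D3:**
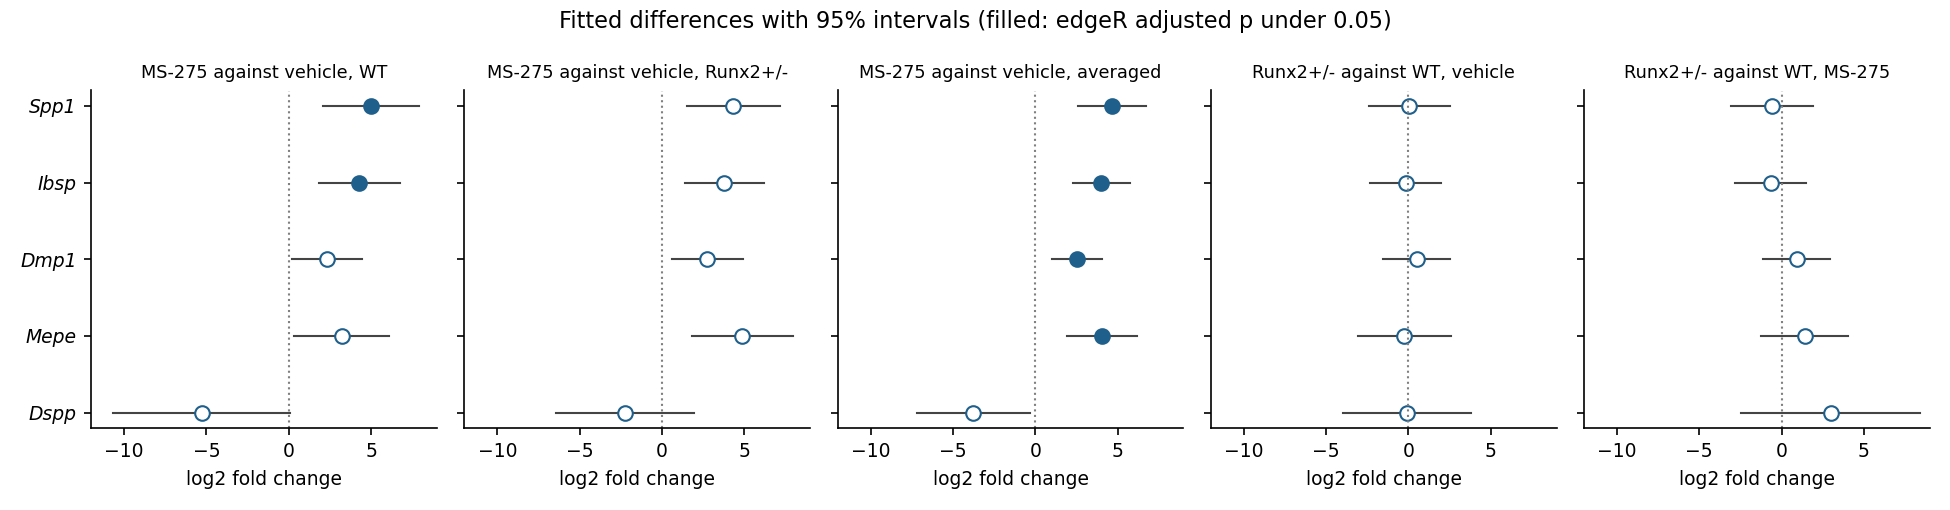
Log2 differences of the 5 SIBLING genes with their 95% intervals, for MS-275 against vehicle in WT, in Runx2+/- and averaged, and for Runx2+/- against WT with vehicle and with MS-275, from the fit of 12 libraries. Filled points have an edgeR adjusted p under 0.05. The MS-275 differences of Spp1, Ibsp, Dmp1 and Mepe lie above 0 and those of Dspp below, and the intervals of the genotype differences include 0 for all 5.

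Treated Runx2+/- against untreated WT calvaria asks how far the treated mutants stood from the normal state. This comparison shares the WT vehicle libraries with the first and the Runx2+/- MS-275 libraries with the second. The log2 differences were 4.40 for Spp1, 3.62 for Ibsp, 3.26 for Dmp1, 4.63 for Mepe and -2.31 for Dspp, with edgeR adjusted p of 0.129, 0.130, 0.131, 0.130 and 0.479 in that order. No gene was called by edgeR (0%), and 23.8% had an unadjusted p under 0.05. By limma-voom 0 genes were called, and by DESeq2 1250 higher and 778 lower, the same 4 members among them. Without Runx2+/- MS-275 replicate 3, Spp1 was at 4.98 (edgeR adjusted p = 0.00210), Ibsp at 4.18 (0.00261), Dmp1 at 3.82 (0.00208) and Mepe at 5.22 (0.00225), and these 4 of 5 were called higher beside 19.4% of genes.

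The genotypes were then compared at matched treatment. Sex was not in the fit, and Xist counts were high in all 3 Runx2+/- MS-275 libraries but mixed in the other groups. The part of sex in these and the other comparisons was not tested. With vehicle none of the members passed by edgeR and 0% of genes did, while 0.306% had an unadjusted p under 0.05. The other tools, limma-voom and DESeq2, called 0 genes here. The log2 difference of Runx2+/- minus WT was 0.06 for Spp1 (95% interval -2.41 to 2.53), -0.15 for Ibsp (-2.30 to 2.00), 0.50 for Dmp1 (-1.54 to 2.54), -0.25 for Mepe (-3.09 to 2.58) and -0.07 for Dspp (-3.96 to 3.81). These intervals are wide enough to hold a several-fold difference in either direction.

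With MS-275 the members again did not pass by edgeR, as for 0% of genes, with 15.8% at an unadjusted p under 0.05. DESeq2 called 564 genes higher and 138 lower, none of them a member, and limma-voom 0. The differences were -0.59 for Spp1 (95% interval -3.07 to 1.90), -0.66 for Ibsp (-2.82 to 1.50), 0.92 for Dmp1 (-1.13 to 2.96), 1.41 for Mepe (-1.23 to 4.05) and 2.97 for Dspp (-2.49 to 8.43). Without Runx2+/- MS-275 replicate 3, Spp1 and Ibsp were at -0.01 (SE 0.64) and -0.10 (SE 0.60), while Dmp1 was at 1.48 (SE 0.50, edgeR adjusted p = 0.493) and Mepe at 2.00 (SE 0.67, edgeR adjusted p = 0.487). The 2 remaining Runx2+/- libraries were above all 3 WT libraries for Dmp1 and Mepe, which held for 13.4% of genes. The interaction, the MS-275 difference in Runx2+/- minus that in WT, was -0.65 for Spp1, -0.51 for Ibsp, 0.42 for Dmp1, 1.67 for Mepe and 3.04 for Dspp. None passed (edgeR adjusted p from 0.886 to 0.949), as for 0% of genes, with 5.3% at an unadjusted p under 0.05. DESeq2 called 38 genes, no member among them, and limma-voom 0.

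Ratios of 2 members within a library do not depend on how libraries are scaled, and showed that Spp1 and Ibsp moved further than Dmp1. This test was chosen after the values were seen and covered the 6 pairs of Spp1, Ibsp, Dmp1 and Mepe, without Dspp. The ratio of Spp1 to Dmp1 counts was 11.2, 11.5 and 21.3 in WT and 8.88, 9.80 and 16.7 in Runx2+/- with vehicle, and 52.6, 84.3 and 189 in WT and 33.9, 33.9 and 12.6 in Runx2+/- with MS-275. All but the last of the MS-275 ratios were above the vehicle ratios. The mean log2 ratio was 1.93 higher with MS-275 (exact permutation of treatment within genotype, two-sided p = 0.01, adjusted over 6 pairs 0.03).

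The ratio of Ibsp to Dmp1 counts was 27.7, 18.7 and 29.1 in WT and 17.6, 17.3 and 13.4 in Runx2+/- with vehicle. With MS-275 it was 65.9, 87.5 and 176 in WT and 32.0, 35.0 and 35.2 in Runx2+/-. Here all 6 MS-275 libraries, Runx2+/- replicate 3 included, were above all 6 vehicle libraries, and the log2 ratio was 1.56 higher (exact permutation p = 0.005, the smallest that the 400 regroupings can give, adjusted 0.03). The 3 WT ratios were all above the 3 Runx2+/- ratios with MS-275, and likewise with vehicle. These genotype differences in the ratio were not tested.

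For the other pairs the ratios moved less. The log2 ratio of Dmp1 to Mepe changed by -1.08 (exact permutation p = 0.075, adjusted 0.1125), that of Spp1 to Mepe by 0.85 (exact permutation p = 0.07, adjusted 0.1125), that of Ibsp to Mepe by 0.48 (exact permutation p = 0.385, adjusted 0.385) and that of Spp1 to Ibsp by 0.37 (exact permutation p = 0.325, adjusted 0.385). Without Runx2+/- MS-275 replicate 3, Dmp1 to Mepe passed at -1.48 (exact permutation p = 0.015, adjusted 0.03), and the ratios of Spp1 and Ibsp to Dmp1 were 2.17 and 1.55 higher (exact permutation, each adjusted 0.015).

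**Figure D4:**
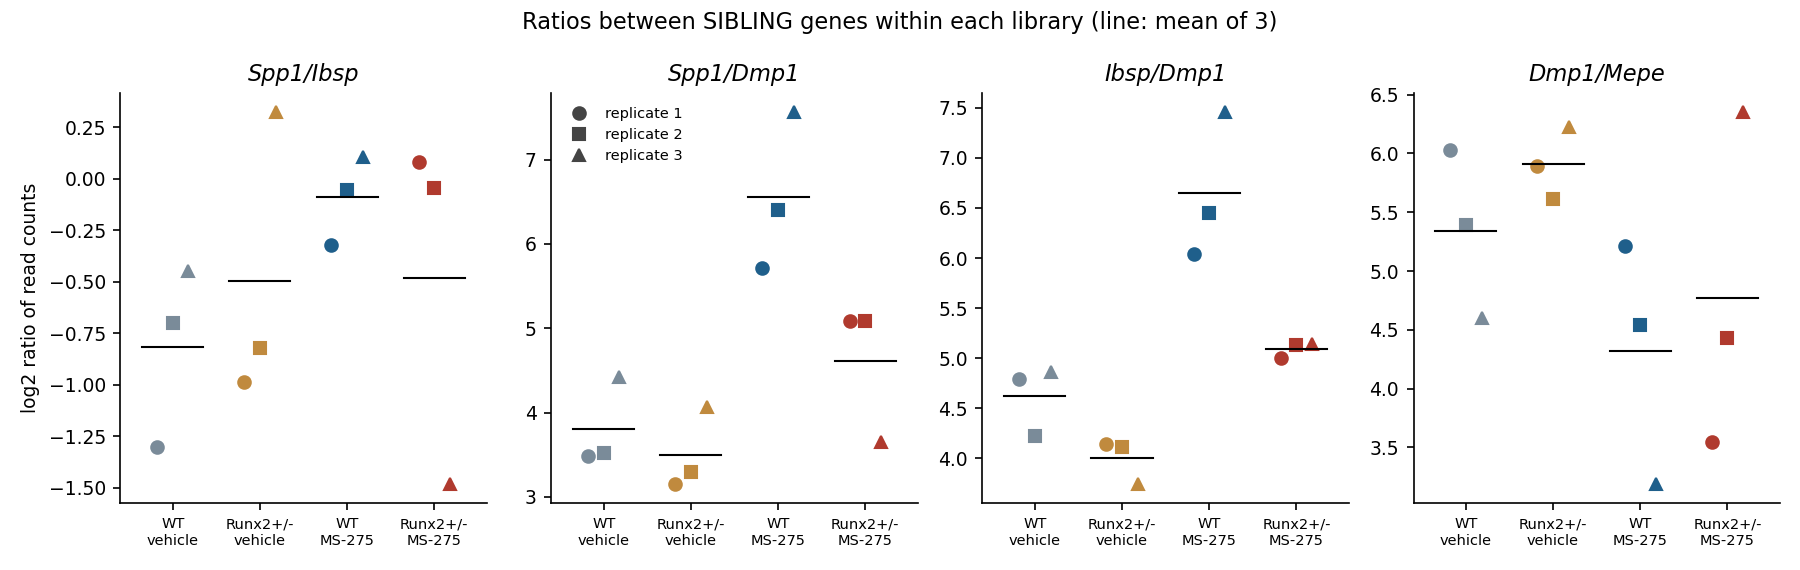
Log2 ratios of counts for 4 of the 6 pairs of Spp1, Ibsp, Dmp1 and Mepe within each of the 12 libraries, by group, with lines at the mean of 3. For Ibsp to Dmp1 all 6 MS-275 libraries, 5.00 to 7.46, lie above the 6 vehicle libraries, 3.74 to 4.86, and for Spp1 to Dmp1 Runx2+/- MS-275 replicate 3, at 3.65, lies among the vehicle libraries.

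The genes around the cluster were examined over 500 kb to either side. Of 24 other annotated genes, 19 were in the files and 11 were tested. In WT, 1 of the 11 rose with MS-275, Hsd17b11, a hydroxysteroid dehydrogenase gene, with a log2 difference of 1.52 (edgeR adjusted p = 0.0458), and none fell, beside 9.67% of all genes called higher and 9.33% lower. In the averaged comparison 3 rose and 0 fell, beside 21.1% and 18% of all genes: Hsd17b11 (1.27, edgeR adjusted p = 0.0161), Nudt9 (0.72, edgeR adjusted p = 0.0223) and Abcg3 (1.94, edgeR adjusted p = 0.0184). Under library size scaling the 11 had 0 called higher and 4 lower in WT, and 1 higher and 4 lower averaged. Hsd17b11 and Nudt9 were then not called higher, and the sign of Nudt9 turned. Pkd2, which lies next to Spp1, had an averaged difference of 0.31 (edgeR adjusted p = 0.123) and Sparcl1, a relative of the family, 0.58 (edgeR adjusted p = 0.0944), so neither passed.

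**Figure D5:**
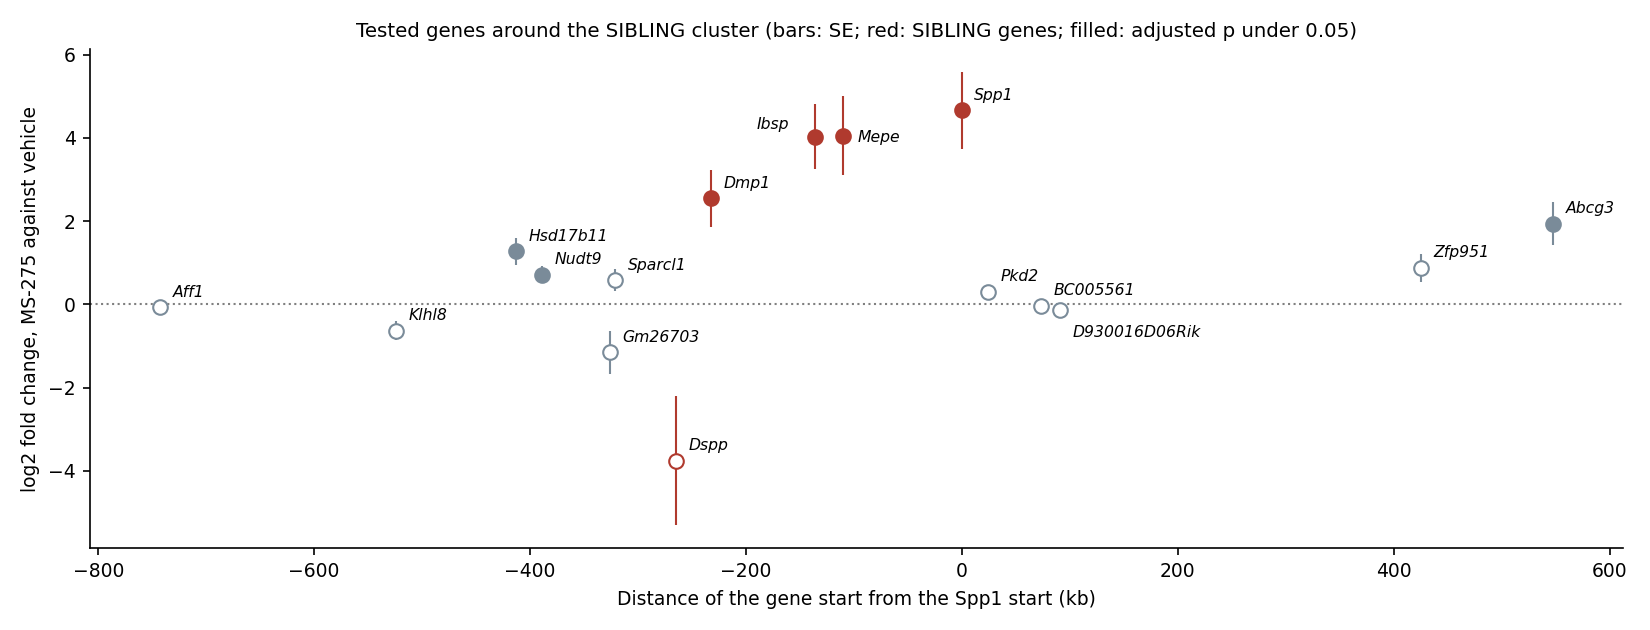
Log2 differences of MS-275 against vehicle, averaged over genotypes, for the tested genes within 500 kb of the SIBLING cluster, against distance from the Spp1 start in kilobases. Bars are the SE, red points are SIBLING genes and filled points have an edgeR adjusted p under 0.05. Spp1, Ibsp, Mepe and Dmp1 lie between 2.55 and 4.67, Dspp at -3.76, and the highest neighbour, Abcg3, at 1.94.

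Among transcription factors that act on SIBLING genes in osteoblasts, the counts were as follows. Of the 9 listed, 3 rose in WT and 0 fell, beside 9.67% of all genes called higher and 9.33% lower, with a median log2 difference of 1.11. They were Runx2 (1.30, edgeR adjusted p = 0.0439), Sp7, the osterix gene (2.00, edgeR adjusted p = 0.0447) and Vdr, the vitamin D receptor (2.02, edgeR adjusted p = 0.0493). In the averaged comparison Mef2c joined them at 0.72 (edgeR adjusted p = 0.0213), making 4 of 9, beside 21.1% of all genes. Under library size scaling none of these 4 was called higher in either comparison, 1 of the 9 was called lower in the averaged one, and the median over the 9 was 0.32 in WT. With upper quartile factors Vdr was not called in WT. Dlx5, at 0.49 (edgeR adjusted p = 0.115), and Atf4, at 0.60 (edgeR adjusted p = 0.106), did not pass in WT.

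Among SIBLING receptors, the integrins and Cd44, the share called was near that of all genes. Of 9 in WT, 1 rose and 1 fell, beside 9.67% of all genes higher and 9.33% lower, with a median of 0.72. Under library size scaling the median turned to -0.07, with 1 higher and 2 lower. Itgb1, the integrin beta chain shared by many receptors, was at 2.07 (edgeR adjusted p = 0.0434), and Itga4, an osteopontin-binding alpha chain, at -1.06 (edgeR adjusted p = 0.0434). With the genotypes averaged, Cd44, a hyaluronan and osteopontin receptor, also passed at 0.64 (edgeR adjusted p = 0.0387), making 2 higher and 1 lower, beside 21.1% and 18% of all genes. Cd44 lost its call with upper quartile factors, and under library size scaling its sign turned and the 9 had 1 higher and 4 lower. The vitronectin receptor pair missed the threshold in WT, Itgav at 0.82 (edgeR adjusted p = 0.0819) and Itgb3 at 0.99 (edgeR adjusted p = 0.106).

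Enzymes that phosphorylate, dephosphorylate, cleave or crosslink SIBLING proteins were mostly not called. Of 15 listed, 14 were tested (Mmp7 was not), and 2 rose and 1 fell in WT, beside 9.67% of all genes higher and 9.33% lower, with a median of 0.62. Phex, an osteocyte endopeptidase that acts on acidic SIBLING peptides, was at 3.63 (edgeR adjusted p = 0.0434), and Alpl, tissue non-specific alkaline phosphatase, at 1.98 (edgeR adjusted p = 0.0464). F2, whose product thrombin cleaves osteopontin, was at -2.42 (edgeR adjusted p = 0.0470). Fam20c, the kinase that phosphorylates secreted SIBLING proteins, had means of 28.2 and 27.2 CPM with vehicle and 25.1 and 21.7 CPM with MS-275, in WT and Runx2+/-. Its log2 difference was -0.16 in WT (edgeR adjusted p = 0.620) and -0.24 averaged over the genotypes (edgeR adjusted p = 0.287). With the genotypes averaged, 3 enzymes rose, Phex at 3.25, F13a1 at 1.68 and Alpl at 1.23, and F2 fell, at -2.11, beside 21.1% of all genes higher and 18% lower. Under library size scaling the median of the 14 turned to -0.16 in WT and -0.17 averaged, with 1 higher and 2 lower, and 1 higher and 3 lower. Alpl lost its call under library size scaling in both comparisons, and F13a1 in the averaged one.

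Other genes of mineralization and bone matrix were counted beside the family. Of 9 mineralization genes tested in WT (Fgf23 was not tested) 3 rose and 0 fell, beside 9.67% of all genes higher, with a median of 1.17: Mgp, matrix Gla protein, at 3.20 (edgeR adjusted p = 0.0440), Sost, sclerostin, at 2.53 (edgeR adjusted p = 0.0476) and Enpp1, which makes pyrophosphate, at 2.46 (edgeR adjusted p = 0.0434). Sost was not called under library size scaling, where 1 of the 9 was called lower. Averaged over the genotypes 5 rose, beside 21.1% of all genes, and Ahsg, the fetuin-A gene, fell at -6.99 (edgeR adjusted p = 0.0212), beside 18%. Of those 5, Ank and Phospho1 lost their calls under library size and upper quartile scaling, and Sost under library size.

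Of 10 bone matrix genes 5 rose and 0 fell in WT, beside 9.67% of all genes higher, with a median of 2.63, and under library size scaling 5 were called as well. They were Bglap (5.25) and Bglap2 (5.23), near-identical osteocalcin copies whose split of reads is uncertain, Omd, osteomodulin (4.89), Ifitm5, a membrane protein of osteoblasts (4.17) and Dcn, decorin (2.98), each with an edgeR adjusted p of 0.0434. Col1a1, the main collagen of bone, was at 1.59 (edgeR adjusted p = 0.147). Of the 10 relatives of the family among secretory calcium-binding phosphoproteins 7 were tested, none passed in WT, and the median was -2.62. Averaged over the genotypes Sparc (1.68, edgeR adjusted p = 0.0286) and Ambn (2.53, edgeR adjusted p = 0.0358) rose and Enam (-6.45, edgeR adjusted p = 0.0446) fell, beside 21.1% of all genes higher and 18% lower. Under library size scaling Sparc and Ambn were not called, and the 7 had 0 higher and 3 lower. In Runx2+/-, where edgeR called 0% of all genes, the lists had none called either.

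Genes most like each member were ranked by the root mean square difference of centred log2 CPM over the 12 libraries, which share depth and treatment. Among the closest to Spp1 were Bglap2 (0.293), Bglap (0.310), Omd (0.460) and Lipc (0.515), with Ibsp at place 7 (0.563). Closest to Ibsp were Ifitm5 (0.0991), Cgref1 (0.280), Timp1 (0.315), Lipc (0.349) and Lipi (0.376), with Spp1 at place 14. Ifitm5 followed Ibsp through every library, Runx2+/- MS-275 replicate 3 included: it measured 17.0, 9.00 and 21.1 CPM in WT and 23.7, 7.15 and 9.42 CPM in Runx2+/- with vehicle, and 216, 280.2 and 351 CPM in WT and 354, 190.9 and 8.92 CPM in Runx2+/- with MS-275. Pearson's r between the log2 values of Ifitm5 and Ibsp over these 12 libraries was 0.999.

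Dmp1 was nearest to Hapln1 (0.535), Matn1 (0.590), Klrb1c (0.590), Enpp1 (0.594) and P4ha1 (0.627), Hapln1 and Matn1 being cartilage matrix genes, and Mepe came at place 155. Pearson's r of Dmp1 with Mepe was nevertheless 0.957, above the 0.938 to 0.946 with those 5 genes. Mepe was nearest to Snorc (0.634), Wfdc6a (0.725), Timp1 (0.738), Cgref1 (0.747) and Ifitm5 (0.767), with Ibsp, Dmp1 and Spp1 at places 6, 10 and 15. Dspp was nearest to Amelx (0.657, Pearson's r 0.964), Enam (0.887), Krt2 (1.26), Vwde (1.27) and Odam (1.28), another enamel organ gene. Ranked by Pearson's r in place of this measure, the 5 nearest shared 1 gene for Spp1, 2 for Ibsp, 0 for Dmp1 and Mepe and 4 for Dspp.

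Markers of other cells that make SIBLING proteins also differed between the groups. Osteoclasts and macrophages make osteopontin. The 8 osteoclast markers summed to 87.0 to 528 CPM with vehicle, 2021 to 2302 CPM in WT with MS-275, and 979, 499.5 and 72.9 CPM in Runx2+/- with MS-275. The 7 macrophage markers summed to 178 to 421 CPM with vehicle, 795 to 1073 CPM in 5 MS-275 libraries and 177 CPM in Runx2+/- MS-275 replicate 3. Osteocyte markers, a list that includes Dmp1 and Mepe, summed to 47.8 to 137 CPM with vehicle and 580 to 694 CPM in WT with MS-275, and to 1282, 587 and 31.4 CPM in Runx2+/- with MS-275, with Pdpn at 0 in all 12 libraries. Chondrocyte markers overlapped in WT, at 281 to 912 CPM with vehicle and 411 to 1181 CPM with MS-275, and in Runx2+/- with MS-275 they summed to 1143.5, 1887 and 141 CPM. The part of these cells in the SIBLING differences was not tested. The Runx2+/- MS-275 library that was low in SIBLING transcripts was thus also the lowest of the 12 in the osteoblast, osteoclast, macrophage, osteocyte and chondrocyte sums.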

How the data were processed

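RNA from E17.5 mouse calvariae was made into stranded total RNA libraries, per the labels' protocols. The deposited files hold whole-number counts per Ensembl mouse gene, 1 file a library. The submitters' processing notes name Trimmomatic, Bowtie2, SAMtools and HTSeq without versions and, as build, GRCh38.p7, a human assembly, although the identifiers are mouse. The build used and the strand setting of the counting are not given in the sources used here, so reads from overlapping genes may not be separable. Rows that name no gene were left out of library sizes and tests. Reads in no gene were 5.21% to 22.2% of uniquely placed reads and differed between the groups. Of 39179 identifiers 37607 matched a symbol, and the 1572 others held 0.217% of counts.

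Group means of all 12 libraries were fitted with edgeR 4.0.16 in R 4.3.3 (TMM factors 0.598 to 1.33, filterByExpr, robust quasi-likelihood test, 8 residual degrees of freedom, common biological coefficient of variation 0.442) over the 17967 genes kept. Adjustment over all genes kept was Benjamini-Hochberg, and a call needed an adjusted p under 0.05. The alternatives were DESeq2 1.42.0, limma 3.58.1 (voom), library size and upper quartile scaling, no filter, a replicate block, only the groups compared, and each library left out. Adding to these, 3 libraries that stood apart were left out together and ratios within libraries were tested, both chosen after the data were seen. A log2 CPM used a prior count of 2, a floor was 3 counts, and intervals were at 95%. Python 3.11.15, pandas 2.3.3 and scipy 1.17.1 computed ratios, intervals and sequence matches. The fits were tested on simulated data in which no library stood apart, so that test does not cover the libraries that stood apart here. Named besides the members were list genes past the threshold in WT or averaged over the genotypes (up to 6 a list, smallest p first), list genes needed as background, neighbours within 500 kb, and the 5 genes most like each member, of which 1 is not reported here. The members and lists were chosen with earlier results of these data known.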

Additional observations from a re-analysis of the deposited data

How the results depend on the processing

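The number of members called varied with the fit. In WT it was 2 as reported, 5 with DESeq2, 4 with only the groups compared, 0 without a filter (edgeR adjusted p of 0.0527 for Spp1), 0 with limma-voom, 0 to 4 with 1 library left out and 5 without the 3 libraries that stood apart. In Runx2+/-, and for treated Runx2+/- against untreated WT, it was 0 as reported, 4 with DESeq2 and 4 without the 3 libraries, and 0 to 4 with 1 library left out. Averaged over the genotypes it was 4 as reported, 2 with limma-voom, 5 with DESeq2 and 4 to 5 with 1 library left out. Among the MS-275 values 394 were the same in direction and call, 24 were weaker, 42 stronger and 3 reversed. Among genotype and interaction values 267 were the same and 27 reversed, and none passed a threshold.

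Replicate numbers did not pair the libraries across all groups: over 18 same-numbered pairs r ran from -0.655 to 0.812 and was over 0.1 in 6, and 5 of 12 libraries correlated best with a library of their own number. Between the vehicle groups r was 0.220, 0.752 and 0.812 for replicates 1, 2 and 3. The 3 libraries that stood apart were all numbered replicate 3, and the labels do not say what the number marks. With the replicate block 0 members were called in WT and 4 averaged over the genotypes.

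Values that turned sign were as follows, and the cause was not tested. With limma-voom Dspp was at 1.82 for MS-275 in Runx2+/-, Dmp1 and Mepe at -0.051 and -1.30 between genotypes with MS-275, and at -0.36 and -1.07 in the interaction. With the replicate block Spp1 was at -0.019 between genotypes with vehicle, and without the 3 libraries Ibsp and Mepe were at 0.31 and 0.62 there. Leaving out 1 library gave these ranges: for MS-275, Dspp -3.13 to 6.51 in Runx2+/- and -4.21 to 0.62 averaged; between genotypes with vehicle, Spp1 -0.21 to 0.61, Ibsp -0.91 to 0.17, Dmp1 -0.11 to 0.84, Mepe -0.91 to 0.40 and Dspp -8.83 to 0.52; with MS-275, Dmp1 -0.14 to 1.48 and Mepe -0.34 to 2.00; in the interaction, Ibsp -1.48 to 0.25, Dmp1 -0.64 to 1.03 and Mepe -0.081 to 2.32. The high Dspp values came without Runx2+/- vehicle replicate 1, the only library of its group with Dspp counts. DESeq2 gave no adjusted p for Dspp in Runx2+/-. Mepe and Dspp rest on few counts, so small differences were not detectable at this depth.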
